A study of Mus musculus with 6 samples.

Results

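Of the 71757 regions that the mutant rescue H3K4me3 peak list holds on chromosomes 1 to 19, 16069 (22.4%, exact 95% interval 22.1% to 22.7%) overlapped no region of the WT rescue H3K4me3 list by even 1 bp. These 16069 regions, called mutant-only regions here, are described below. They were chosen on the H3K4me3 lists themselves, so their H3K4me3 width, fold and q-value are given as a description and with no test. The remaining 55688 regions of the mutant rescue list touched a WT rescue region and are called shared. The reverse set, regions of the WT rescue list that overlap no mutant rescue region, numbered 13394 of 69221 (19.3%) and is called WT-only. All intervals are exact (Clopper-Pearson) binomial intervals and cover counting error only.

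The mutant rescue consists of mouse embryonic stem cells with a GFP knock-in at Rx that lack Wdr5 and p53 and were given WDR5 S91K Y191F. The WT rescue consists of the same double knockout cells given WDR5WT. Both were kept in 2i+LIF, a medium that holds mouse stem cells in the naive state, and both therefore lack p53. For chromatin immunoprecipitation sequencing (ChIP-seq), which sequences the DNA recovered with an antibody, 1 WDR5, 1 H3K4me3 and 1 input library were made from each line, and the 4 peak lists of the antibody libraries hold 183983 regions. The inputs are not analysed here. The labels do not say whether a rescue line is a single clone, and each antibody has 1 library per line, so differences between the lines could not be checked over replicates and carry no p-value. Peak lists cannot show whether Wdr5 or Trp53 is intact, so they do not check the knockouts.

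Trimethylation of lysine 4 of histone H3 (H3K4me3) is laid down by the KMT2/SETD1 methyltransferase complexes, and WDR5 is a WD-repeat scaffold subunit that these complexes share. In stem cells the mark sits as strong, broad regions over promoters rich in the dinucleotide CG, active or poised, while weaker and narrower regions of it occur at enhancers and within genes. A gene can carry the mark without being transcribed. The stem cell label was checked against 24 autosomal naive pluripotency genes, of which 22 had an H3K4me3 region within 1 kb of a gene end in the mutant rescue list, against the same 22 in the WT rescue list. Pou5f1, Nanog, Sox2, Klf4 and Zfp42 were among them, and Esrrb and Nr5a2 had none there in either list. Over all autosomal protein-coding genes the shares were 69.1% in the mutant rescue list and 69.9% in the WT rescue list. Other lists stood about as high, such as neuroectoderm and eye field genes with 16 and 18 of 18. The count is thus only a weak check of the label. Of 13 fibroblast markers 4 had a region in the mutant rescue list and 7 in the WT rescue list. Col1a2, Thy1, Twist1 and Twist2 had one in both, and Acta2, Col1a1 and Prrx1 in the WT rescue list alone. Col3a1, Dcn, Fap, Lum, Postn and S100a4 had none in either. A mutant-only region lay within 1 kb of a gene end at none of the 24 naive pluripotency genes and none of the 13 fibroblast markers, where the share over all autosomal protein-coding genes was 2.47% (511 of 20665).

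The promoters that the mutant-only regions cover are few and poor in CG. The windows below run from 250 bases before to 50 bases after the annotated start, as RefSeq gives them on GRCm38.p6, the assembly that mm10 is made from. CG dinucleotides are in capitals. The first 4 are the protein-coding windows of the highest fold, among those that overlap a mutant-only region and no other H3K4me3 region. They are on the plus strand in each case. Il17re, which ties with Cmbl, is not printed, and genes such as Lifr and Serpinb1b, whose members lie at a gene end outside their promoter windows, are not among them. They belong to Birc7, which encodes a member of the inhibitor of apoptosis family (chr2:180928773-180929072), Gm3435 (chr17:15009590-15009889), Popdc2, a membrane protein gene of heart and skeletal muscle (chr16:38361940-38362239), and Cmbl, a hydrolase gene (chr15:31568583-31568882). The fifth, of the long non-coding RNA Gm20110 (chr10:99608921-99609220, plus strand), has the highest CpG ratio of all windows under mutant-only regions.
Birc7: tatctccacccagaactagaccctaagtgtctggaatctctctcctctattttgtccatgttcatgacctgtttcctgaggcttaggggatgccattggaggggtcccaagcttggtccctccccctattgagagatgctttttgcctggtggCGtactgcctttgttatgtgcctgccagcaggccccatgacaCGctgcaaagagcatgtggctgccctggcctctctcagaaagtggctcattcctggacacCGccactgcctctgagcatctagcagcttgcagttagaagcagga
Gm3435: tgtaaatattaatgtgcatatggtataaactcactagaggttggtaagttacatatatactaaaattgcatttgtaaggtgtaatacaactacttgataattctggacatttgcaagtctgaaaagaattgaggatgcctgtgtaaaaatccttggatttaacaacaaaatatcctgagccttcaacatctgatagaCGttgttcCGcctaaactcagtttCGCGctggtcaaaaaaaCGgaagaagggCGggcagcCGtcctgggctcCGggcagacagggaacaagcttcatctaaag
Popdc2: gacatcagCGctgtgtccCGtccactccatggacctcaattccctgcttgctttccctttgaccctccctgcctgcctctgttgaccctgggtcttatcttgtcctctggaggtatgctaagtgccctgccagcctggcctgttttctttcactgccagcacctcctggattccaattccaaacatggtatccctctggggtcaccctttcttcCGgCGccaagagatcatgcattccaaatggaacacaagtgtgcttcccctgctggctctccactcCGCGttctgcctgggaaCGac
Cmbl: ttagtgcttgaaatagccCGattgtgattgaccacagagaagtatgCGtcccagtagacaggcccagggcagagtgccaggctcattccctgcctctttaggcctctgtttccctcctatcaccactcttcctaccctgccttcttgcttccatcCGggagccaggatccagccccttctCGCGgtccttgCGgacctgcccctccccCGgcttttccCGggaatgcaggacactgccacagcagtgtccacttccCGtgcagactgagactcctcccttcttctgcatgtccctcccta
Gm20110: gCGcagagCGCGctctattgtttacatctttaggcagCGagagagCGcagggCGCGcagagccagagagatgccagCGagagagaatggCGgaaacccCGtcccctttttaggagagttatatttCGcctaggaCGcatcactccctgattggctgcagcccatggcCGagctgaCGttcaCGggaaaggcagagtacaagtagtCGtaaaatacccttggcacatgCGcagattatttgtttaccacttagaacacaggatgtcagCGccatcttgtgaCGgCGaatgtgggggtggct

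For contrast, 2 promoters that lie under shared regions are printed next. Both belong to transcription factors of naive pluripotency, Tfcp2l1 (chr1:118627695-118627994, plus strand) and Klf2 (chr8:72318812-72319111, plus strand).
Tfcp2l1: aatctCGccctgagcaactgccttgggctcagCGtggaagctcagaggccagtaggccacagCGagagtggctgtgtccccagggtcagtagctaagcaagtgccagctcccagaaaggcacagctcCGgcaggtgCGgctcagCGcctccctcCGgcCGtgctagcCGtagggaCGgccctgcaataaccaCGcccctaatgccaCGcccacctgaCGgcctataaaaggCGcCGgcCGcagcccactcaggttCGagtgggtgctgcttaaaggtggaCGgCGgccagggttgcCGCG
Klf2: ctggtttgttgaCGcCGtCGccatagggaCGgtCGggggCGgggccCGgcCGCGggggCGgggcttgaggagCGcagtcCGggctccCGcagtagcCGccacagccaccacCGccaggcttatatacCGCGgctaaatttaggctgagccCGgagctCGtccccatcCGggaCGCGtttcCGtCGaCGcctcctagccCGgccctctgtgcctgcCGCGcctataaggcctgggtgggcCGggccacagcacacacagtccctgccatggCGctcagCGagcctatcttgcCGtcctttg

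The CpG ratio is the number of CG dinucleotides over the number expected from the C and G content of the window. The Birc7 window has 3 CG and a ratio of 0.138, the Popdc2 window 7 and 0.320, and the Cmbl window 9 and 0.380. The Gm3435 window has 8 CG in a sequence that is only 40.0% G and C, which gives a ratio of 0.673, and its mutant-only region of 170 bp covers just the upstream end of the window. Gm20110 has 20 CG and a ratio of 0.913. The shared Tfcp2l1 and Klf2 windows have 21 and 32 CG and ratios of 0.656 and 0.889, and their regions have a −log10 q of 315 and 579.7, where the 5 mutant-only regions have 8.87 to 11.4.

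Over the whole table of 31365 promoter windows, 227 windows of 210 genes, 76 of the windows protein-coding, lay under mutant-only regions and no other H3K4me3 region. Their median CpG ratio was 0.247, against 0.756 in 15349 windows under shared regions, 0.370 in 361 windows under WT-only regions and 0.184 in 15005 windows with no H3K4me3 region. A ratio over 0.6 was found in 12 of the 227 windows (5.29%, interval 2.76% to 9.05%), against 71.0% of shared, 14.7% of WT-only and 2.45% of unmarked windows, and 36.3% of all windows. The mutant-only windows stood closer to windows without the mark than to shared windows in CG content. Weaker shared regions have less CG too. Among regions with a −log10 q between 2 and 12, 9 of 172 mutant-only windows (5.23%, interval 2.42% to 9.70%) and 134 of 894 shared windows (14.99%, interval 12.7% to 17.5%) had a ratio over 0.6. Of the 12 CG-rich windows, 11 belonged to long non-coding RNAs and 1 to a protein-coding gene.

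Short promoter sequences were counted on both strands of the same windows, as a description. The letters GGGCGG, the core bound by Sp1-type factors, were present in 24 of the 227 mutant-only windows (10.6%), against 65.1% of shared windows, 28.0% of WT-only windows and 7.11% of unmarked windows, with 36.0% over all windows. TATAAA was present in 13.2% of mutant-only, 6.33% of shared, 13.0% of WT-only, 21.1% of unmarked and 13.6% of all windows. CCAAT was present in 34.8% of mutant-only windows, 36.6% of shared windows and 37.3% of all windows, and these shares lay within the mutant-only interval of 28.6% to 41.4%. GGGCGG itself contains a CG.

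**Figure D1:**
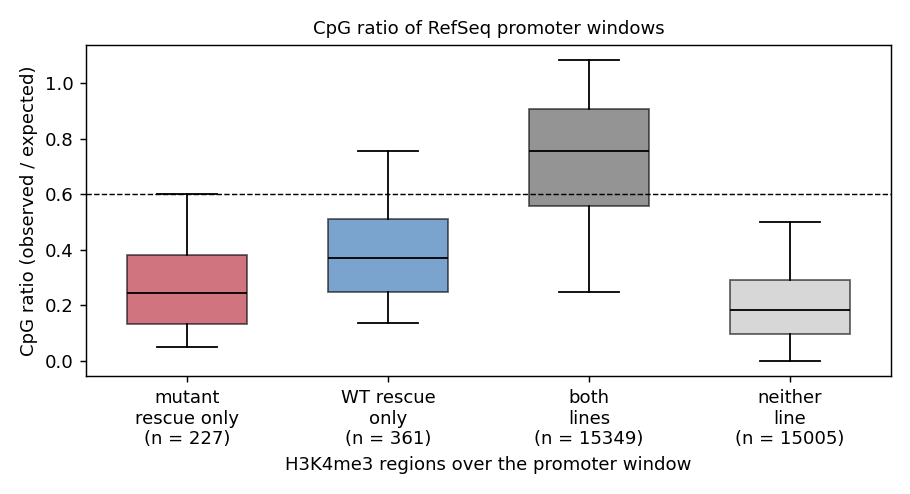
CpG ratio (observed over expected, no unit) of RefSeq promoter windows grouped by the H3K4me3 regions over them. Boxes run from the lower to the upper quartile with the median as a line, whiskers mark the 5th and 95th percentiles, and the dashed line marks a ratio of 0.6. The median is 0.247 for windows under mutant-only regions, against 0.370 for WT-only, 0.756 for both lines and 0.184 for neither.

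As regions of the mark, the members were narrow and weak. Their width had a median of 292 bp with quartiles at 198 and 474 bp, against a median of 941 bp with quartiles at 495 and 1389 bp for shared regions. Together they covered 6.29 Mb, against 55.5 Mb for the shared regions. A width of 151 bp, the smallest in the list, was held by 1338 members (8.33%), against 705 shared regions (1.27%), and 8275 members (51.5%) were narrower than 300 bp. At the other end 784 members (4.88%) were at least 1000 bp wide and 28 at least 2000 bp, against 26145 (46.9%) and 3156 of the shared regions. The WT-only regions had nearly the same median width, 286 bp, but only 172 (1.28%) of them reached 1000 bp and only 1 reached 2000 bp.

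The fold is the peak caller's own enrichment at the summit, and it is used here only within a list. Its median was 2.82 among members, with a highest value of 9.61, against a median of 4.998 and a highest value of 65.0 among shared regions. A fold of at least 5 was held by 372 members (2.32%) and by 49.99% of the shared regions. The median −log10 q was 2.65 among members and 13.9 among shared regions, and 889 members (5.53%) had a −log10 q of at least 8. When the whole mutant rescue list was cut into 10 equal parts by p-value, mutant-only regions made up 63.7% of the least significant part, then 54.8%, 45.1%, 30.9%, 19.4%, 7.94% and 1.95%. The eighth part held 8 of them and the 2 most significant parts none. The mutant-only regions thus fill the weak end of the list.

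**Figure D2:**
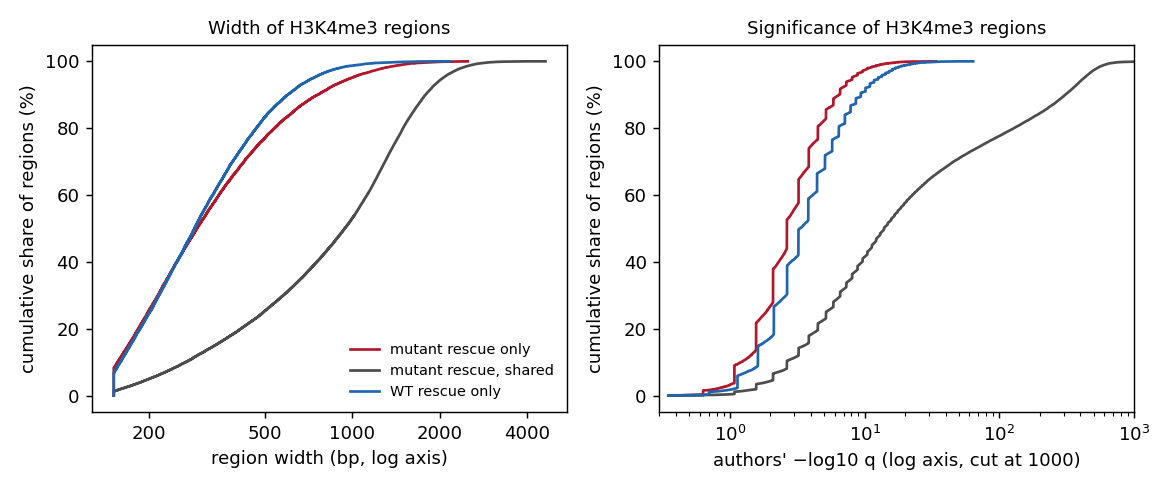
Cumulative share (%) of mutant-only, shared and WT-only H3K4me3 regions on chromosomes 1 to 19 by width (left, bp, log axis) and by the authors' −log10 q (right, log axis, cut at 1000). The mutant-only curve lies left of the shared curve in both panels, with medians of 292 against 941 bp and of 2.65 against 13.9.

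The rule draws its line at 1 bp of overlap. Just inside it, 6 members abutted a WT rescue region with no base between, and their folds ran from 1.88 to 2.56. Just outside it, 8 shared regions touched a WT rescue region by 1 bp, and their folds ran from 1.81 to 3.89. Within 10 bp of the edge the median fold was 2.65 for 79 members and 2.78 for 65 shared regions. Most members were not edge cases, since the gap to the nearest WT rescue region had a median of 5.69 kb with quartiles at 1.27 and 15.1 kb and a maximum of 727 kb. A gap under 1 kb was found for 3638 members (22.6%), and a gap of at least 20 kb for 3114 (19.4%).

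The individual members of highest fold lay away from gene ends. The highest, 9.61, belonged to a region of 798 bp at chr3:97378739-97379536, 40.9 kb from the nearest WT rescue region and 30.7 kb from the olfactory receptor gene Olfr1402. Next came a region of 700 bp inside the zinc finger gene Zfp978 with a fold of 9.18. A region of 276 bp inside Ccdc171 and one of 549 bp at chr15:41325688-41326236, 121 kb from the nearest protein-coding gene, Oxr1, each had a fold of 8.97. A region of 846 bp at chr14:47970429-47971274, 149.5 kb from Peli2, had a fold of 8.79. None of these 5 was overlapped by a WDR5 region of either line.

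The member with the highest −log10 q, 33.9, was a 962 bp region at chr16:13720562-13721523 inside Pla2g10, a secreted phospholipase gene, with a WT rescue region 1.42 kb away. Only 19 members had a −log10 q of at least 20. The widest member, of 2496 bp and a fold of 5.66, lay inside Col9a3, a gene of cartilage collagen. Others of the 5 widest lay 262 kb from Lratd2 (2356 bp), 1000.4 kb from Crim1 (2329 bp), 7.21 kb from Mier3 (2298 bp) and 17.5 kb from Vegfa, the vascular growth factor gene (2295 bp). Gaps to a WT rescue region around these 5 ran from 4.47 kb at Col9a3 to 238 kb at the Lratd2 region.

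Few mutant-only regions lay at gene ends. A region counted as at a boundary when it came within 1 kb of either end of a protein-coding gene, because the gene table gives no strand. This held for 537 of 16069 members (3.34%, interval 3.07% to 3.63%), against 14123 of 55688 shared regions (25.4%) and 854 of 13394 WT-only regions (6.38%, interval 5.97% to 6.80%). Per Mb of covered sequence the counts were 85.4 for members, 255 for shared and 186 for WT-only regions. The median distance to a boundary was 24.3 kb for members, 11.9 kb for shared and 20.9 kb for WT-only regions. Protein-coding gene bodies held 6752 members (42.0%, interval 41.3% to 42.8%), against 58.6% of shared and 54.5% of WT-only regions.

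Where the promoter table gives annotated starts, which leaves out chromosome 18, 144 of 15553 members (0.926%, interval 0.781% to 1.09%) contained one, against 21.3% of shared and 1.71% of WT-only regions. More than 10 kb lay between the member and the nearest start in 75.1% of members, 58.0% of shared and 73.7% of WT-only regions.

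Regions were also compared within equal ranges of −log10 q, each region on the scale of its own library. Between 8 and 12, 26 of 653 members (3.98%, interval 2.62% to 5.78%) were at a protein-coding boundary, against 7.06% of shared regions and 9.63% of WT-only regions. Between 12 and 20 the shares were 3.23% of 217 members (interval 1.31% to 6.53%), 8.04% of shared and 12.8% of WT-only regions. Below 2 they were 3.75% of members (interval 3.20% to 4.36%), 6.30% of shared and 4.67% of WT-only regions. The share among members stayed between 2.52% and 3.98% in these ranges, and the member and WT-only intervals did not overlap in any range from a −log10 q of 2 upward to 20. None of the 19 members with a −log10 q of 20 or more was at a boundary, a count of 0 of 19 whose interval reaches 17.6%, against 50.8% of shared and 15.6% of WT-only regions in that range. That range has no upper bound, so strength is not matched in it. The highest −log10 q was 33.9 among members, 64.0 among WT-only and 51962.8 among shared regions.

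**Figure D3:**
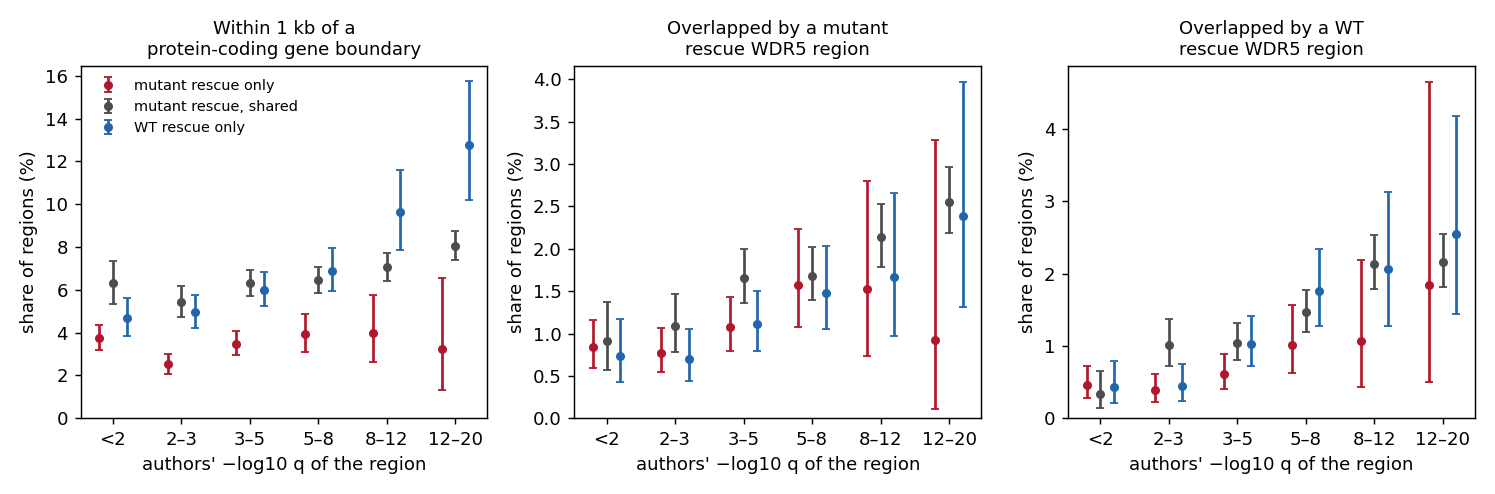
Share (%) of mutant-only, shared and WT-only H3K4me3 regions that lie within 1 kb of a protein-coding gene boundary (left), or are overlapped by a WDR5 region of the mutant rescue (middle) or of the WT rescue (right), by ranges of the authors' −log10 q on the x axis. Points are shares and bars exact 95% binomial intervals. In the left panel the mutant-only points stay between 2.52% and 3.98% while the WT-only points plotted reach 12.8%; regions with a −log10 q of 20 or more are not plotted.

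WDR5 regions were rare on the mutant-only H3K4me3 regions. The shares given first are over regions of all strengths, and those within ranges of −log10 q follow after them. A mutant rescue WDR5 region overlapped 161 members (1.00%, interval 0.854% to 1.17%), where the share over the shared regions was 5.21% (2900 regions), and the WT-only share was 1.13%. A WT rescue WDR5 region overlapped 95 members (0.591%, interval 0.479% to 0.722%), where the share over the shared regions was 8.1% (4512 regions), and the WT-only share was 1.08%. Neither WDR5 list touched 15822 members (98.5%), against 88.9% of shared regions. The 2 WDR5 lists differ in length, with 26691 autosomal regions in the mutant rescue and 10942 in the WT rescue, which is 10.8 and 4.45 per Mb of the chromosomes' span. Per Mb of H3K4me3 sequence covered, mutant rescue WDR5 overlapped 25.6 members, 52.3 shared and 33.0 WT-only regions, and WT rescue WDR5 15.1 members, 81.4 shared and 31.5 WT-only regions.

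The WDR5 lists are weak throughout. When only WDR5 regions with a −log10 q of 2 or more were kept, the counts were 16 of the 161 members (9.94%) for the mutant rescue and 13 of the 95 (13.7%) for the WT rescue, where 4.65% of all mutant rescue and 10.4% of all WT rescue WDR5 regions passed. The shares were also taken within ranges of H3K4me3 −log10 q. Mutant rescue WDR5 overlapped 0.838% of members and 0.911% of shared regions below 2, and 0.774% and 1.09% between 2 and 3. Between 3 and 5 these were 1.08% and 1.66%. The intervals of members and shared regions overlapped in each of these ranges. From 20 upward, a range with no upper bound, 9.83% of shared regions and 0 of 19 members were overlapped. Between 5 and 8 a mutant rescue WDR5 region overlapped 1.58% of members (interval 1.07% to 2.23%), 1.68% of shared and 1.48% of WT-only regions. For the WT rescue WDR5 list the shares in that range were 1.02% of members (interval 0.622% to 1.57%), 1.46% of shared and 1.75% of WT-only regions, and the intervals of members and WT-only regions overlapped. Between 2 and 3 the WT rescue WDR5 shares were 0.387% of members (interval 0.230% to 0.611%), 1.01% of shared regions (interval 0.718% to 1.38%) and 0.445% of WT-only regions. The intervals of members and shared regions stood apart in that range only. They overlapped in every other range, and below 2 the shares were 0.466% of members and 0.331% of shared regions. Between 8 and 20 a mutant rescue WDR5 region overlapped 1.38% of members (interval 0.715% to 2.40%), 2.35% of shared and 1.93% of WT-only regions. For WT rescue WDR5 these were 1.26% (interval 0.633% to 2.25%), 2.15% and 2.24%.

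Of the 161 members with mutant rescue WDR5, the highest H3K4me3 fold, 5.90, was at chr17:50252425-50253475, 25.9 kb from Dazl, an RNA-binding protein gene of germ cells. The WDR5 region there had a fold of 2.84 and a −log10 q of 0.407. The second, with an H3K4me3 fold of 5.34, lay over the lower-coordinate end of Ciita at chr16:10479366-10480463, with a WDR5 fold of 2.99 and a −log10 q of 0.842. The next 3, in Trim66, near Ttr and 1184 kb from Cdh8, lay under WDR5 regions with a −log10 q of 0. Of the 95 members with WT rescue WDR5, the highest H3K4me3 fold, 6.27, was at chr12:93541842-93542922, 647 kb from the nearest protein-coding gene, Gm40892, and the others of the top 5 lay 122 kb from Tle3 and inside Gm7697, the calcium channel gene Cacna1d and the myelin gene Mal. Gm7697 carried the one of these 5 WDR5 regions whose −log10 q passed 2, at 2.33.

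Both WDR5 lists met at 9 members (0.0560%), against 1236 shared regions (2.22%) and 48 WT-only regions (0.358%). These 9 were chosen with their values known. The highest H3K4me3 fold among them, 4.70, was at chr11:3137336-3137575 in Sfi1, a centrosome gene, with a −log10 q of 3.45 for mutant rescue WDR5 and 4.81 for WT rescue WDR5. The member in Abcd4, a transporter gene, had the strongest mutant rescue WDR5, with a −log10 q of 5.67, against 3.83 for WT rescue WDR5. Others lay in Dglucy, Afg1l and Epha4, and in the imprinted non-coding gene Snhg14.

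Of 20665 autosomal protein-coding genes, 511 (2.47%) had a mutant-only region at a boundary, and 404 (1.95%) had one with no WT rescue region at that boundary. The reverse, a WT-only region with no mutant rescue region there, held for 676 genes (3.27%). Of the 404 genes, 214 had the region at the 3′ end, 96 at the 5′ end, and 94 had no strand in the promoter table. A WT rescue region lay at the other boundary of 226 of them, which left 178 (44.1%) with no WT rescue region at either.

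The 15 of these genes with the highest fold, taken once per region at a −log10 q of 2 or more, had folds from 4.70 to 6.38. Ciita, which encodes the transactivator of MHC class II genes, was first. A member of 1649 bp at chr16:10530018-10531666 with a fold of 6.38 lay over its higher-coordinate end, where Dexi also ends, and the WDR5-overlapped member described above lay over the other end. Over the gene there were 3 mutant-only, 1 shared and no WT-only regions. A narrow region of 188 bp near the olfactory receptor gene Olfr270 had a fold of 5.98.

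Lifr encodes a subunit of the receptor for LIF, the cytokine in the medium. Its member, chr15:7089876-7091175, 1300 bp with a fold of 5.59 and a −log10 q of 13.3, covered the 5′ end of the annotated gene, and the nearest WT rescue region was 1.13 kb away. As stated above, this member lies outside the promoter windows of Lifr. Over the whole of Lifr there were 6 mutant-only, 5 shared and no WT-only regions. Birc7 had a region of 1392 bp with a fold of 5.43 over its 5′ end and no other H3K4me3 region over the gene. Serpinb1b, a serine protease inhibitor gene, had a region of 1847 bp with a fold of 5.27 at its 5′ end, also outside its promoter windows.

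Taf1c, which encodes a subunit of the RNA polymerase I initiation factor SL1, had its region (fold 5.21) at the 3′ end, and a WT rescue region at the other end. Popdc2 and Gm3435 had a fold of 5.13 each at the 5′ end, and the Gm3435 region also lay at the 5′ end of Gm3448. Acp7, an acid phosphatase gene (3′ end), and Il17re, a subunit of an interleukin 17 receptor (5′ end), had 4.91. Arhgap10, Atp6v1b1 (a subunit of the vacuolar proton pump, 5′ end), Gm10323 and Gm13283 (3′ end) had 4.70. Lamp3 (3′ end) tied with them in fold and q-value and fell outside the 15 by the order of names alone. A WT rescue region lay at the other boundary of 8 of the 15 genes.

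Few genes of the lineage and function lists had a mutant-only region at a boundary, as few protein-coding genes did at all. The lists written as gene symbols held 216 different autosomal genes. Of these, 2 (0.926%) had a member, where the share over protein-coding genes was 2.47%, 1 (0.463%) had it at a boundary without a WT rescue region, where that share was 1.95%, and 11 (5.09%) had a WT-only region without a mutant rescue region, where that share was 3.27%. In lists of 8 to 28 genes a count of 0 is close to the 2.47% of protein-coding genes. The 1 gene was Tdpoz4, listed with genes of the 2-cell-like state, with a region of 318 bp, a fold of 2.56 and a −log10 q of 1.57. The other, Cd8a, a T cell surface gene, had a WT rescue region there as well. No member lay at a boundary in the lists of naive (24 genes) or formative pluripotency (13), neuroectoderm and eye field (18), mesoderm (18), endoderm (12), trophectoderm (8), germline (20), synapse (28), KMT2/SETD1 subunits (18) or p53 targets (23).

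Families taken by gene name were counted in the same way. Over protein-coding genes 2.47% had a member, 1.95% had one without a WT rescue region, and 3.27% had a WT-only region without a mutant rescue region. Over all annotated genes these shares were 3.22%, 2.54% and 3.14%. None of 39 Hox genes, 85 cytosolic ribosomal protein genes, 91 potassium channel genes and 129 small nucleolar RNA genes had a member at a boundary, against 4, 2, 7 and 1 with a WT-only region and no mutant rescue region. By annotated type, a wider set, 17 of 1286 small nucleolar RNA genes (1.32%) had a member. Solute carriers had a member without a WT rescue region at 7 of 351 genes, among them Slc22a20 with a fold of 4.39, Slc35a3 with 3.91 and Slc39a8, a zinc and manganese importer gene, with 3.84. Zfp zinc finger genes had 7 of 365, against 10 with a WT-only region, and Zfp992 led with a fold of 3.88. Keratin genes had 2 of 105 (Krt42 with a fold of 3.49 and Krt17 with 2.35), against 11 with a WT-only region, and the clustered protocadherins 1 of 58 (Pcdha8, fold 3.20), against 7.

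Chemosensory receptor genes, which carry little H3K4me3 in these cells, had a member without a WT rescue region there at 5 of 1111 olfactory and 3 of 356 vomeronasal genes, against 8 and 0 with a WT-only region and no mutant rescue region. By the same counts, transfer RNA genes had 6 of 386, against 4, and n-TGgcc10 had the highest fold, 4.49, with a mutant rescue WDR5 region on the same member. MicroRNA genes had 13 of 1103, against 22. The highest fold there was 5.29, at a 2021 bp region over Mir153, and Mir7074 followed with 4.62. Among the families with such a gene the share ran from 0.450% for olfactory receptors to 1.99% for solute carriers, near or under the shares of 1.95% for protein-coding genes and 2.54% for all annotated genes.

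Mutant-only regions often came in groups. Another mutant-only region lay within 5 kb of 6094 members (37.9%), against 39.3% of the far more numerous shared regions and 18.5% of WT-only regions (2478). The median gap to the nearest region of the same class was 12.2 kb for members, 7.01 kb for shared and 31.6 kb for WT-only regions. The share depended on weak regions: with a −log10 p of at least 5 in both lists it was 23.2% for mutant-only and 14.0% for WT-only regions, and with lists of equal length 35.6% and 19.3%. The comparison of neighbours was added after the data were seen.

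**Figure D4:**
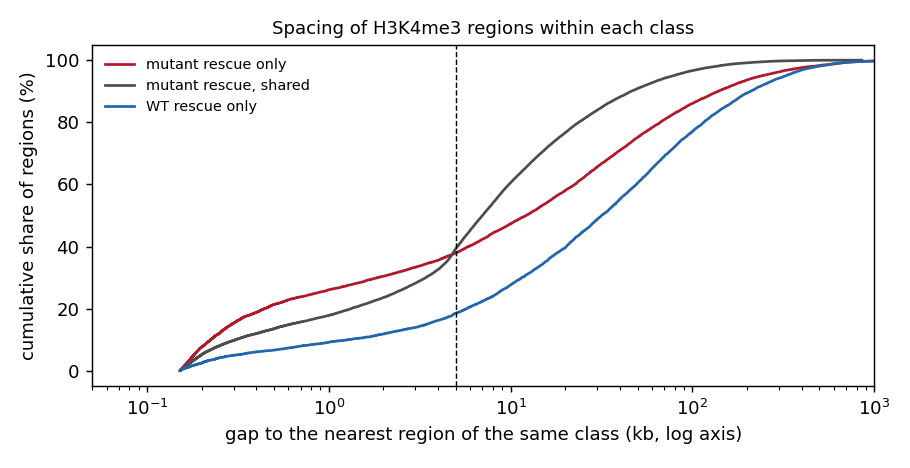
Cumulative share (%) of mutant-only, shared and WT-only H3K4me3 regions by the gap to the nearest region of the same class (kb, log axis). At the dashed line, 5 kb, the mutant-only curve stands at 37.9%, against 39.3% for shared and 18.5% for WT-only regions.

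The densest window of 100 kb was on chromosome 17 at 45.9 to 46.0 Mb, next to Vegfa. It held 16 mutant-only regions among 19 mutant rescue regions, against 3 WT rescue regions, none of them WT-only. Their folds ran from 1.99 to 5.73 and their widths from 237 to 2295 bp, and the window holds the non-coding genes Gm41585 and Gm36122. A window on chromosome 1 at 35.8 to 35.9 Mb held 14 mutant-only regions of 21, against 9 WT rescue regions, of which 1 was WT-only. Windows on chromosome 2 (166.2 to 166.3 Mb) and chromosome 8 (11.8 to 11.9 Mb, over Arhgef7 and Tex29) held 13 mutant-only regions each, of 17 and 16, against 4 WT rescue regions in each. No WDR5 region of either line overlapped a mutant-only region in these 4 windows.

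Members were also counted over gene bodies, after the data were seen. At least 1 mutant-only region lay in 3521 of 20665 protein-coding genes and at least 5 in 232, against 4290 and 193 for WT-only regions. Etl4, 900.3 kb long, held 21 mutant-only, 44 shared and 5 WT-only regions. Tenm3, which encodes the synaptic adhesion protein teneurin 3, held 16, 47 and 14 in 1297 kb. Btbd9 held 16, 5 and 3, and Smyd3, a lysine methyltransferase gene, 15, 21 and 0. Per length Sipa1l2 and Nmnat2, a NAD-synthesis gene of axons, were the densest of the 12 genes with most members, with 9.22 and 9.12 mutant-only regions per 100 kb.

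Across chromosomes the mutant-only share of the mutant rescue list ran from 19.8% on chromosome 15 to 26.6% on chromosome 16. On all 19 autosomes mutant-only regions outnumbered WT-only regions, by a ratio of 1.20 in total. This excess depended on the settings. With lists of equal length there were 14338 mutant-only and 14039 WT-only regions, and with a gap of at least 1 kb 12431 and 10753. With a −log10 p of at least 5 in both lists the order was reversed, with 9515 mutant-only and 11625 WT-only regions. On chromosome 16 the mutant-only share was 26.6% (interval 24.9% to 28.3%), against a WT-only share of the WT rescue list of 16.6% (interval 15.1% to 18.1%), and the ratio of counts was 1.81. The ratio lay between 1.02 and 1.39 on the other 18. Chromosome 16 was singled out after its values were seen. Without it the mutant-only share over the autosomes was 22.2%.

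Of 448 windows of 5 Mb with at least 50 regions in each list, the median ratio of mutant-only to WT-only regions was 1.19 and the range from the 5th to the 95th percentile 0.512 to 2.46. The highest ratio, 5.54, was on chromosome 16 at 10 to 15 Mb, where 72 of 207 mutant rescue regions were mutant-only and 13 of 155 WT rescue regions WT-only. The Ciita members and the Pla2g10 member described above lie in that window. Next came chromosome 12 at 20 to 25 Mb (63 against 16) and chromosome 14 at 60 to 65 Mb (78 against 20).

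**Figure D5:**
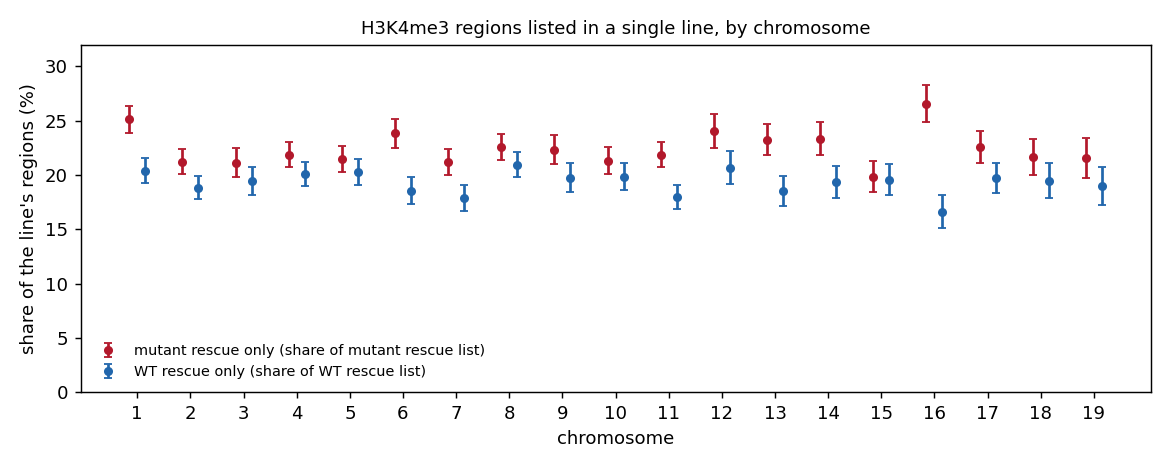
Share (%) of each line's H3K4me3 regions that the other line's list lacks, for chromosomes 1 to 19, as mutant-only share of the mutant rescue list and WT-only share of the WT rescue list. Points are shares and bars exact 95% binomial intervals. Chromosome 16 has the highest mutant-only share, 26.6%, and the lowest WT-only share, 16.6%.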

How the data were processed

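H3K4me3 and WDR5 ChIP-seq peak lists of the mutant rescue and WT rescue lines were analysed, 1 library each. The submitters' processing notes name BWA 0.7.17-r1188, MACS2 2.1.2, Picard, SAMtools and the build mm10. Settings and the control are not given in the sources used here. The deposited lists give per peak a position, a fold enrichment (ratio), a −log10 p and a −log10 q. The deposited score, also given per peak by the authors, was not used. The smallest deposited −log10 p among the mutant-only regions was 2.00. Read depth is unknown, because the lists hold no read totals, and the number and width of peaks depend on it.

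Overlap meant at least 1 bp. Genes came from a RefSeq table on GRCm38.p6 without strand, and promoter windows from RefSeq (16457 of 20665 protein-coding genes, 79.6%, had one). Annotated starts were taken from these windows. The tools were pandas 2.3.3, numpy 2.4.6, scipy 1.17.1 and matplotlib 3.10.9 under Python 3.11.15. The overlap code was tested on simulated data over the 69221 autosomal WT rescue regions, and it found 200 of 200 planted mutant-only and 200 of 200 planted shared regions.

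The members, gene lists and rules were chosen with earlier results of these data known. Named genes are the 15 protein-coding genes of highest fold with a mutant-only region and no WT rescue region at a boundary (−log10 q at least 2), up to 4 genes per list, and the members of highest fold, q, width or member density. Not every gene it takes is named in the text. Alternatives were a stricter q in the mutant rescue list alone, a stricter p in both lists, equal list lengths and a reciprocal overlap of 50%. Others were a gap of 1 kb, chromosome X, a window of 2.5 kb and all genes.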

Additional observations from a re-analysis of the deposited data

How the results depend on the processing

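The mutant-only share of the mutant rescue H3K4me3 list, 22.4%, was 18.1% with a −log10 q of at least 2 in the mutant rescue list. The WT rescue list was left whole in that setting. The share was 16.96% with a −log10 p of at least 5 in both lists, 20.7% with lists of equal length and 17.3% with a gap of at least 1 kb. It was 38.2% when a reciprocal overlap of 50% was asked for. The share overlapped by mutant rescue WDR5, 1.00%, was 1.37% with a −log10 p of at least 5, 1.18% under reciprocal overlap, 3.01% with WDR5 within 1 kb and 0.0996% with WDR5 of −log10 q at least 2. For WT rescue WDR5, 0.591%, these settings gave 0.841%, 0.831%, 1.61% and 0.0809%. The boundary share, 3.34%, was 3.69% with a −log10 p of at least 5, 4.54% under reciprocal overlap, 6.99% with a window of 2.5 kb and 9.91% over all annotated genes. The 404 genes became 634 with a window of 2.5 kb and 1193 over all genes, and 303 to 435 under the other alternatives. The WDR5 and boundary shares of shared and WT-only regions were not recomputed under these settings, so the contrast with members was not followed there. The share of CG-rich windows, 5.29%, was 1.32% among protein-coding windows alone, against 74.8% of shared and 16.9% of WT-only protein-coding windows. The cause of these shifts was not tested, beyond what each setting changes by construction. No paired analysis was possible because each antibody has 1 library per line, so no replicate could be left out either. Every member rests on 1 mutant rescue library and its absence from 1 WT rescue library. A region below the threshold in the WT rescue is counted as absent, the depths are unknown, and signal there was not measured.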

Other observations

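Outside protein-coding genes, 477 of 12408 long non-coding RNA genes (3.84%) had a mutant-only region and no WT rescue region at a boundary, against 499 (4.02%) with a WT-only region and no mutant rescue region. Over all annotated genes these shares were 2.54% and 3.14%. For pseudogenes the counts were 239 of 8884 (2.69%) and 236 (2.66%). Immunoglobulin and T cell receptor V segments had 8 of 394 (2.03%) and 2 (0.508%), both under the shares over all annotated genes. Ighv9-1 on chromosome 12 carried a member of 742 bp and a fold of 6.76, and Trav13-1 one with a fold of 5.34. The highest fold at any non-coding gene, 8.33, belonged to a region of 377 bp on chromosome 1 next to the pseudogenes Gm10222 and Gm10925. Small nucleolar RNA genes by annotated type had 14 of 1286 (1.09%) and 7 (0.544%).

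Folds of the members repeated in steps. There were 4248 different fold values among the 16069 members, and the 10 commonest were held by 8669 of them (53.9%), against 18.3% of shared regions.

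A low fold stood beside a high −log10 q in a few members. The region at chr4:147230101-147230487 in Zfp978 had a fold of 2.80 and a −log10 q of 28.1, and that at chr10:7611886-7612410 in Lrp11 a fold of 3.31 and a −log10 q of 21.7.

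Off the autosomes, 468 of 2318 mutant rescue regions on chromosome X (20.2%) had no WT rescue region, against 370 of 2223 (16.6%) the other way. On chromosome Y the counts were 14 of 105 and 36 of 125.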
